A study of Mus musculus with 6 samples.

Results

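The genes described here are the replication-dependent histone genes of the mouse, which supply histone protein to newly copied DNA. They were chosen by symbol alone: protein-coding genes named Hist1h, Hist2h, Hist3h or Hist4h. In the annotation 70 symbols match these names, 3 of them are not protein coding, and 67 genes fit the rule. Of these, 55 have a row in the deposited table of 19973 genes. The 12 others, among them Hist2h2aa1, Hist2h2aa2, Hist2h3c1 and Hist1h2bm, were not analysed here.

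The libraries came from peritoneal macrophages of male C57BL/6 mice, an inbred laboratory strain, aged 18 months (old, 3 libraries) or 2 months (young, 3 libraries). Mice of both ages had received 200 µg of zymosan A, a preparation of yeast cell walls that provokes a passing peritonitis. Peritoneal cells were washed out 72 hours later and cultured overnight in medium with L-cell supernatant, a usual source of the macrophage growth factor CSF-1, after which adherent cells stood in vehicle (PBS) for 6 hours. The labels give no genetic change in either group, and the series is about the lipid resolvin D2 in ageing, which none of these 6 libraries had received.

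Replication-dependent histone genes are switched on as cells enter S phase, when the coactivator NPAT is phosphorylated by cyclin E and its kinase at the histone clusters. Their messenger RNAs are the only common ones in animal cells without a poly(A) tail: they end just after a short stem-loop that the protein SLBP binds, and they are destroyed when DNA synthesis stops. The core histones H2A, H2B, H3 and H4 form the nucleosome and the linker histone H1 binds the DNA between nucleosomes. In mice and humans some of these genes can also give transcripts with a poly(A) tail in cells that have stopped dividing, and tissue macrophages are cells that can divide in place.

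The stem-loop is shown first because it is the part of these transcripts that sets them apart. It was read from GENCODE release M21 transcripts and was found after the stop codon in 38 of the 55 listed genes, starting 21 to 54 bases downstream with a median of 31. Among 22527 protein-coding genes with transcripts, 52 hold it (0.231%), and 6 of those are not replication-dependent histone genes by the rule. The 7 examples below come from an H1, an H2A, an H2B, an H3 and 2 H4 genes and from Hist3h2a, which ran against the rest. Capitals mark the 16 bases of the stem-loop and each line reads from 5′ to 3′.
Hist1h1c: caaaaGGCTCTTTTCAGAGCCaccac
Hist2h2ac: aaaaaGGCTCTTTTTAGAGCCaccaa
Hist1h2bb: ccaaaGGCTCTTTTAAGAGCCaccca
Hist1h3g: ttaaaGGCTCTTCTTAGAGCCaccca
Hist1h4d: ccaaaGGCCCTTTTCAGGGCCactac
Hist1h4b: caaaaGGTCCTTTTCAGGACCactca
Hist3h2a: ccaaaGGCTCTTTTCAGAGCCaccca

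The genes that fit the rule carried 8 forms of these 16 bases, the one printed for Hist1h1c and Hist3h2a being the most frequent, in 26 genes. The forms that open with GGCCC or GGTCC were found in H4 genes and in no other class. In 17 listed genes no stem-loop was found. For 15 of these the annotated 3′ UTR is shorter than 100 bases, and the other 2 are Hist2h2be, with 2192 annotated bases after the stop codon, and Hist1h2bc, with 742. In most of the 15 the annotation ends at the stop codon or within 2 bases of it, where the search could find no stem-loop. These genes are therefore not shown to lack one.

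Promoters are shown for 3 genes whose values the results turn on: Hist1h2bb, one of the most deeply lowered H2B genes, Hist2h2ac, whose upstream bases are shared with the neighbouring Hist2h2be, and Hist3h2a. The sequences are from RefSeq on GRCm38.p6 and run from 250 bases before to 50 bases after the start of the gene. Capitals mark CCAAT (the box bound by NF-Y), TATAAA and ATTTGCA (the core of the octamer bound by OCT1), each searched on both strands, so that capitals also mark their reverse complements. The window of Hist1h2bb lies at chr13:23746484-23746783 on the plus strand, that of Hist2h2ac at chr3:96220831-96221130 on the minus strand and that of Hist3h2a at chr11:58954435-58954734 on the plus strand.
Hist1h2bb: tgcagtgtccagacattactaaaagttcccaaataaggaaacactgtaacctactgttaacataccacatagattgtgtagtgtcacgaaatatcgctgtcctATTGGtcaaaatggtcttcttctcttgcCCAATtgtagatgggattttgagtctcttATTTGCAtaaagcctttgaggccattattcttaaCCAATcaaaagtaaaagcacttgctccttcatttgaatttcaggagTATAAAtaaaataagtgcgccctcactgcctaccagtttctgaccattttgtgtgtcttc
Hist2h2ac: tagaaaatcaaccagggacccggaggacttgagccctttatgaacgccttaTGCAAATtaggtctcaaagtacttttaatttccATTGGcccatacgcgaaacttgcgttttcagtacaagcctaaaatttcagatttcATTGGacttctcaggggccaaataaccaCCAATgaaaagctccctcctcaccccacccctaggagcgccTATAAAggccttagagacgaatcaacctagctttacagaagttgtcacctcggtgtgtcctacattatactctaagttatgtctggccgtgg
Hist3h2a: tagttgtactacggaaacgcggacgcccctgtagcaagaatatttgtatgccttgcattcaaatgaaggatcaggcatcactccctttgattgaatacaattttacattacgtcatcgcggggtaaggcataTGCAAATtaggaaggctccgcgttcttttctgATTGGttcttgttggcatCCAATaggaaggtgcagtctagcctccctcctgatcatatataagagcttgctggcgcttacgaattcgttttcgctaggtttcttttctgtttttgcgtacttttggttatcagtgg

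Of the 55 listed genes, 50 matched a promoter in the RefSeq table. The CCAAT letters were found in 84.0% of these 50 windows, against 37.92% of all 27025 windows of the same length. They were present in every H1, H2A, H2B and H3 window and in 3 of 11 H4 windows. TATAAA was found in 62.0% of the histone windows, against 14.16% of all. The octamer core was found in 20.0%, against 3.98% of all, namely in 6 of 13 H2A and 4 of 11 H2B windows and in no H1, H3 or H4 window.

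The 6 libraries held between 8163000 and 13008000 reads, and the values below are the authors' normalized counts, that is reads divided by a size factor of the library, of 0.787 to 1.18. Whether the 3 libraries of an age are 3 mice or repeat runs is not stated for the single libraries, so the p-values speak only of the spread among these libraries, possibly a technical one. Replicate 3 of the old had nuclear ribosomal RNA at 1.34% of reads, against 0.0244% and 0.0832% in old replicates 1 and 2 and 0.0177% to 0.154% in the young. Over all genes both libraries numbered 3 stood apart from those of their age: by a chi-square statistic per gene, old replicate 3 differed from the other old libraries by 4.02 and 4.69 times sampling noise, against 1.49 between those, and young replicate 3 from the other young libraries by 4.15 and 2.92 times, against 1.77 between those. All 10 macrophage markers were present in both ages, with a summed level of 346500 to 431840 in old and 276920 to 351750 in young libraries. Summed markers of some other cells moved with age. The 10 B-cell markers summed to 1671 to 3312 in old and 125 to 129 in young libraries. The 4 listed neutrophil markers summed to 7566 to 9533 in old and 431 to 557 in young libraries. T and NK cell markers summed to 69.9 to 95.7 in old and 7.61 to 12.1 in young libraries, and mast cell markers to 552 to 630 in old and 46.3 to 71.1 in young libraries. Dendritic cell markers reached 49.5 to 86.0 in old and 24.5 to 29.2 in young libraries. Mesothelial and fibroblast markers reached 510 to 592 in old and 558 to 694 in young libraries, and erythroid markers were near 0 in both. Some of these sums rest on few genes. Only 2 of 8 neutrophil, 1 of 10 T and NK cell and 2 of 8 dendritic cell markers had a mean of at least 10. In bulk RNA fewer cells of a type and less RNA per cell cannot be told apart, and the part of these other cells in the histone values was not tested.

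Histone transcripts were less abundant in old than in young macrophages in every class. The 55 listed genes together had 4006, 4928 and 2820 normalized counts in old replicates 1, 2 and 3, against 21231, 18822 and 19674 in young replicates 1, 2 and 3. The mean was 3918 ± 1057 in old libraries against 19909 ± 1222 in young ones (SD, n = 3 each), so the old level was 19.7% of the young level and the log2 ratio of the means was -2.35. In reads, these genes took 3352, 5765 and 2220 reads in the old libraries and 21107, 21451 and 23282 in the young libraries. As a share of all reads this was 0.0364%, 0.0443% and 0.0272% in old and 0.216%, 0.186% and 0.187% in young libraries. Old and young libraries did not overlap, and old replicate 3, the library with the most ribosomal RNA, was the lowest of all. Without both libraries numbered 3, the log2 ratio of the sum was -2.17.

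H3, a core histone, had the lowest ratio of the 5 classes, with 390, 537 and 258 normalized counts summed over 11 genes in old libraries, against 2727, 2390 and 2457 in young libraries. Its mean was 395 ± 140 in old libraries against 2525 ± 178 in young ones (SD, n = 3 each), which is 15.6% of the young level. H2A, over 13 genes, had 326, 427 and 271 in old libraries and 2161, 1534 and 1523 in young libraries. The H2A level in old libraries was 19.6% of the young level, and young replicate 1 was the highest library.

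The linker histone H1, over 6 genes, had 1355, 1569 and 883 normalized counts in old libraries and 6359, 6136 and 6573 in young libraries, which is 20.0% of the young level. H4, over 12 genes, had 1102, 1489 and 826 in old libraries and 6149, 5250 and 5498 in young libraries, which is 20.2%. H2B, over 13 genes, had 833, 906 and 583 in old libraries and 3836, 3512 and 3623 in young libraries, which is 21.2%. In each class every old library was below every young one. The log2 ratios of the classes lay between -2.68 for H3 and -2.24 for H2B, and no test was made of sums over members.

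**Figure D1:**
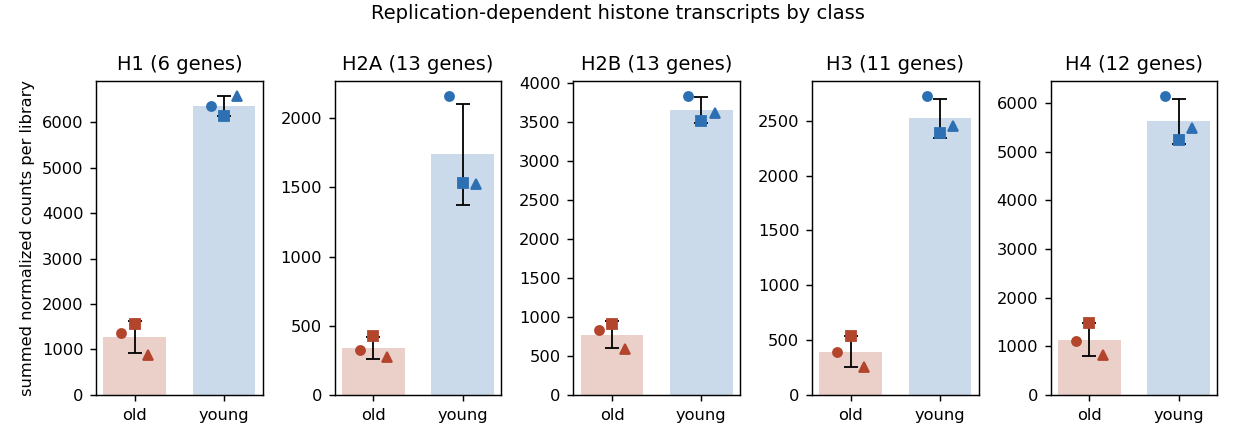
Summed normalized counts of the listed genes of each histone class (y axis, linear, from 0), in old (left) and young (right) libraries. Bars are means, whiskers SD (n = 3), and circle, square and triangle are replicates 1, 2 and 3. In every class the old libraries lie well below the young ones, with triangles (old replicate 3) the lowest.

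Single genes were tested with limma on log2(normalized count + 1) over all 11795 genes with a mean of at least 10, with Benjamini-Hochberg adjustment at 0.05. Of the 55 listed histone genes 52 passed this filter. Of these, 49 fell in old macrophages, against 17.6% of all tested genes that fell, and 2 rose, against 17.9% of all tested genes that rose. The remaining gene, Hist1h2bc, did not pass the test. With edgeR 49 of the 52 fell and 2 rose (36.7% of all tested genes called), with DESeq2 48 fell and 2 rose (31.7% called), and with no filter on low values 50 of the 55 fell (10.3% of all genes). Without both libraries numbered 3, 51 fell and 2 rose. There the filter was applied again to the remaining libraries, so the genes tested were not the same. In that setting 59.0% of all genes were called, of which 28.7% of all fell and 30.3% of all rose. The median log2 fold change of the 52 genes was -2.54, and that of all tested genes 0.00. A call with a log2 fold change below -1 was made for 48 of the 52, against 4.89% of all tested genes, and below -2 for 39, against 1.61%. Among the 52 tested histone genes, 49 had every old library below every young one, against 23.6% of all tested genes. In 2 of them every old library lay above, against 24.0% of all tested genes, and 1 overlapped. Over all 55 listed genes these counts were 50, 2 and 3.

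All 5 tested H1 genes fell. Hist1h1b, a linker histone gene of the main cluster on chromosome 13, had 183, 214 and 128 normalized counts in old libraries, against 1427, 1422 and 1567 in young libraries. The log2 fold change was -3.10 ± 0.16 (SE; limma adjusted p = 8.70e-07), the largest fall among the H1 genes. Hist1h1c had 437, 495 and 262 in old libraries and 1478, 1278 and 1305 in young libraries, with a log2 change of -1.81 ± 0.20 (SE; limma adjusted p = 1.09e-04), the smallest fall among them. The other 3 had log2 fold changes of -2.49 (Hist1h1a), -2.44 (Hist1h1d) and -2.27 (Hist1h1e). As these genes fell unequally, the make-up of H1 transcripts differed: Hist1h1b gave 13.9% ± 0.568 of H1 counts in old libraries against 23.2% ± 0.696 in young ones, and Hist1h1c gave 31.2% ± 1.36 in old ones against 21.3% ± 1.74 in young ones (SD, n = 3 each). The testis H1 gene Hist1h1t was below the filter, at 0 in every library except young replicate 2, where it had 1.75 normalized counts.

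Of the 13 tested H2A genes 12 fell and 1, Hist3h2a, rose. The lowest fold change was that of Hist1h2af, with 8.37, 12.0 and 7.62 normalized counts in old libraries and 149, 98.3 and 83.7 in young libraries (log2 fold change -3.41 ± 0.28, SE; limma adjusted p = 1.52e-05). Hist1h2ak had 33.5, 62.4 and 33.0 in old libraries and 489, 345 and 293 in young libraries, a log2 fold change of -3.13. Hist2h2ac of the chromosome 3 cluster, which gave the most H2A counts in old libraries and came after Hist1h2ak in young ones, had 110, 151 and 68.6 in old libraries and 423, 326 and 308 in young libraries. Its log2 fold change was -1.73 ± 0.25 (SE; limma adjusted p = 6.17e-04), the smallest fall among the H2A genes. Hist1h2an, Hist1h2ag, Hist1h2ah, Hist1h2ab, Hist1h2ai, Hist1h2ac, Hist1h2ae, Hist2h2ab and Hist1h2ad fell, with log2 fold changes of -3.25, -3.00, -2.99, -2.75, -2.58, -2.40, -2.23, -2.12 and -1.94.

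Of the 12 tested H2B genes 10 fell, 1 rose and 1 was not called. Hist1h2bk had the lowest limma fold change of all 52 genes, with 12.0, 22.2 and 11.4 normalized counts in old libraries and 193, 163 and 180 in young libraries (log2 fold change -3.53 ± 0.25, SE; limma adjusted p = 5.81e-06). The H2A gene Hist1h2af was slightly lower than Hist1h2bk with edgeR (log2 fold change -3.527 against -3.502) and with DESeq2 (-3.536 against -3.505). Hist1h2bb, whose promoter is printed above, had 99.2, 104 and 62.2 in old libraries and 832, 748 and 806 in young libraries (log2 fold change -3.19). The share of Hist1h2bb in H2B counts was 11.4% ± 0.629 in old libraries against 21.7% ± 0.472 in young ones (SD, n = 3 each). Hist1h2bn, Hist1h2bl, Hist2h2bb, Hist1h2bf, Hist1h2bg, Hist1h2bj, Hist1h2bp and Hist1h2be fell, with log2 fold changes of -3.34, -2.78, -2.71, -2.65, -2.60, -2.57, -1.94 and -1.90. Hist3h2ba was below the filter, with 1.20, 0 and 2.54 in old and 5.03, 1.75 and 1.69 in young libraries, which overlap.

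All 11 tested H3 genes fell. The lowest fold change was that of Hist1h3g, with 7.17, 22.2 and 8.89 normalized counts in old libraries and 146, 136 and 117 in young libraries (log2 fold change -3.44 ± 0.36, SE; limma adjusted p = 7.36e-05). Hist1h3f, which gave the most H3 counts in young libraries and came after Hist1h3e in old ones, had 69.3, 83.8 and 40.6 in old libraries and 455, 476 and 449 in young libraries (log2 fold change -2.87). Hist1h3c, Hist1h3d, Hist1h3i, Hist1h3b, Hist2h3b, Hist1h3e, Hist1h3h and Hist1h3a fell, with log2 fold changes of -3.13, -3.04, -2.80, -2.79, -2.55, -2.54, -2.20 and -1.95. Hist2h3c2 was near the filter, with 5.98, 5.98 and 5.08 in old libraries and 15.1, 19.3 and 11.0 in young libraries (log2 fold change -1.24 ± 0.41, SE; limma adjusted p = 0.0423). Its call was lost with DESeq2 (adjusted p = 0.0882), with quantile normalization (0.0857) and without old replicate 1 (0.0872) or old replicate 2 (0.0889), and over all alternatives the adjusted p of Hist2h3c2 ranged from 0.00925 to 0.13.

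All 11 tested H4 genes fell. Hist1h4d, which gave the most counts of the H4 genes in both ages, had 305, 437 and 253 normalized counts in old libraries and 2049, 1787 and 1812 in young libraries (log2 fold change -2.54 ± 0.17, SE; limma adjusted p = 4.16e-06). Hist1h4f had 120, 147 and 88.9 in old libraries and 859, 729 and 720 in young libraries, and its log2 fold change of -2.71 was the lowest in the class. Hist1h4k, Hist1h4j, Hist1h4b, Hist1h4h, Hist1h4c, Hist1h4a, Hist2h4 and Hist4h4 fell, with log2 fold changes of -2.70, -2.55, -2.50, -2.24, -2.13, -2.12, -1.79 and -1.68. Hist1h4i, at 38.2, 41.9 and 20.3 in old libraries and 77.5, 52.6 and 61.7 in young libraries, had the smallest fall of the 49 genes (log2 fold change -0.96 ± 0.28, SE; limma adjusted p = 0.0269). The call of Hist1h4i was lost without young replicate 1 (adjusted p = 0.105) and without young replicate 3 (adjusted p = 0.0568), and with quantile normalization (adjusted p = 0.0589), in a range of 0.0158 to 0.105 over all alternatives. Below the filter, Hist1h4n had 4.78, 5.13 and 2.54 in old libraries and 22.1, 12.3 and 9.30 in young libraries, which do not overlap.

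**Figure D2:**
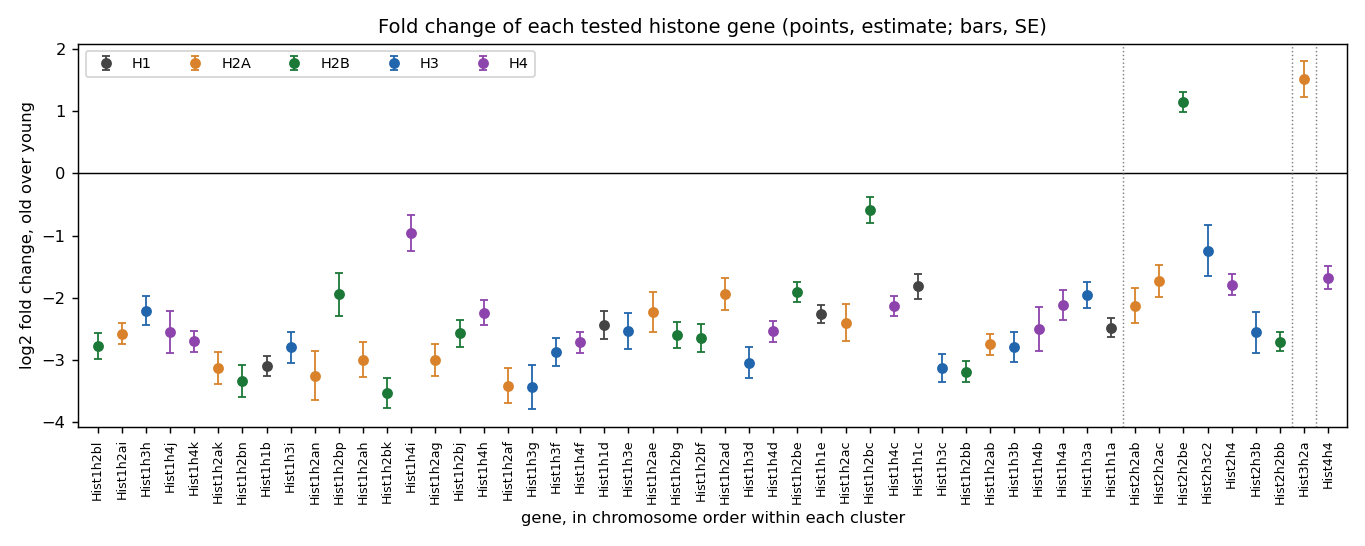
Log2 fold change of old over young for the 52 tested histone genes (points, limma estimate; bars, SE), in chromosome order, coloured by class. Dotted lines part the clusters on chromosomes 13, 3, 11 and 6. All points are below 0 except Hist2h2be and Hist3h2a, and all but Hist1h2bc passed the test.

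Per kilobase of annotated exon, the genes with the highest levels in old macrophages were Hist1h4f (303 normalized counts per kilobase), Hist1h4d (291) and Hist2h2bb (278). In young macrophages they were Hist1h1b (1981), Hist1h4f (1968) and Hist2h2bb (1813). Hist1h1b stood at 235 per kilobase in old macrophages. These levels depend on annotated lengths, which for some of these genes hold no 3′ UTR.

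By cluster, the main one on chromosome 13 held 43 tested genes, of which 42 fell, with a median log2 fold change of -2.58. The cluster on chromosome 3 held 7, of which 6 fell and 1 rose, with a median of -1.79. Hist4h4, alone on chromosome 6, had 70.5, 70.9 and 45.7 normalized counts in old libraries and 219, 173 and 205 in young libraries. The one tested gene of the chromosome 11 cluster, Hist3h2a, rose.

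Hist2h2be, which encodes an H2B variant known in the mouse from olfactory neurons, lies at chr3:96221119 (GRCm38, start of the gene) and was higher in old macrophages. It had 166, 155 and 112 normalized counts in old libraries, against 62.4, 62.3 and 65.9 in young libraries. The means were 144 ± 28.7 in old libraries against 63.5 ± 2.07 in young ones (SD, n = 3 each), 2.27 times as high in old, and the log2 change was 1.15 ± 0.16 (SE; limma adjusted p = 5.17e-04). No old library overlapped a young one. None of the 50-base windows of its transcripts was shared with another gene. Beside the 10 H2B genes that fell, Hist2h2be had a share of H2B counts of 18.7% ± 1.48 in old libraries against 1.74% ± 0.101 in young ones (SD, n = 3 each).

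Hist3h2a, an H2A gene at chr11:58954685 (GRCm38, start of the gene), had 35.9, 41.9 and 39.4 normalized counts in old libraries, against 9.05, 16.7 and 14.4 in young libraries. It was 2.92 times as high in old libraries, with a log2 change of 1.52 ± 0.29 (SE; limma adjusted p = 0.00288), and no libraries overlapped. It gave 11.8% ± 2.47 of H2A counts in old libraries against 0.816% ± 0.352 in young ones (SD, n = 3 each). These are small counts, of 9 reads in young replicate 1 and 30 in old replicate 1. Its exons overlap those of Trim17 on the same strand, whose own value was at most 0.855 in old and 1.01 in young libraries.

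Hist1h2bc, an H2B gene of the main cluster, had 120, 129 and 80.0 normalized counts in old libraries, against 202, 168 and 124 in young libraries. Old replicate 2 lay above young replicate 3, so the ages overlapped. Its log2 fold change was -0.59 ± 0.22 (SE; limma adjusted p = 0.0623), and the adjusted p was 0.0218 without young replicate 3, in a range of 8.45e-04 to 0.214 over all alternatives. Its share of H2B counts was 14.1% ± 0.333 in old libraries against 4.50% ± 0.957 in young ones (SD, n = 3 each), with no overlap.

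**Figure D3:**
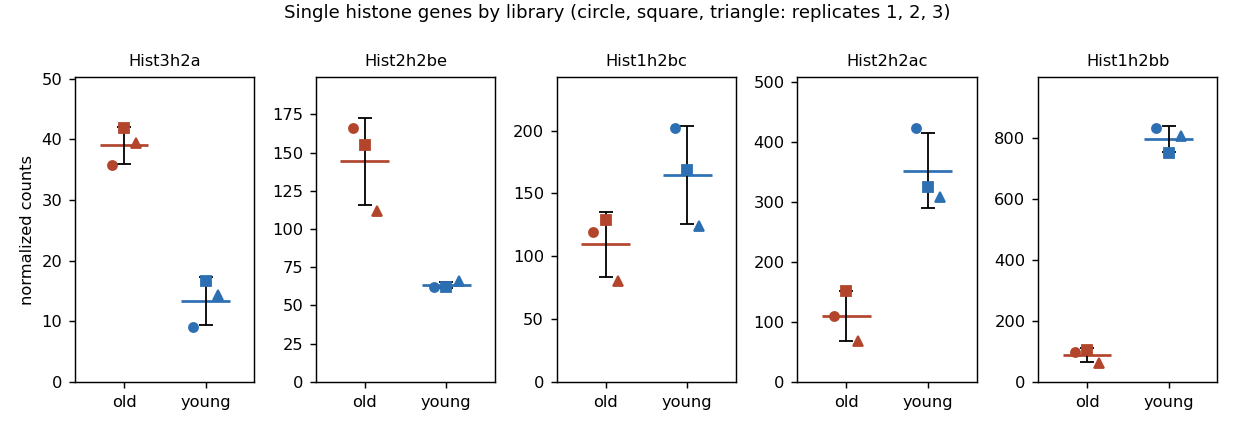
Normalized counts per library (y axes, linear, from 0) of the 2 genes that rose, of Hist1h2bc, and of Hist2h2ac and Hist1h2bb, which fell, in old (left) and young (right) libraries. Horizontal lines are means, whiskers SD (n = 3), and circle, square and triangle are replicates 1, 2 and 3. Hist3h2a and Hist2h2be are higher in old, Hist1h2bc overlaps between the ages, and the other 2 are lower in old.

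H2A and H2B genes often lie back to back and share the bases between their starts. Among the listed genes there were 9 such pairs with at most 400 bases between the starts, and in 7 of them both genes fell. In 6 of these 7 the H2B log2 fold change differed from that of its H2A partner by -0.71 to 0.43. In Hist1h2an and Hist1h2bp the values were -3.25 and -1.94. The remaining 2 pairs parted: Hist2h2ac at -1.73 and Hist2h2be at 1.15 start 238 bases apart, a difference of 2.88, and Hist1h2ac at -2.40 and Hist1h2bc at -0.59 start 250 bases apart, a difference of 1.81. The printed Hist2h2ac promoter holds the whole stretch between the starts of its pair, with the motifs of all 3 kinds in capitals. These differences between neighbouring genes were not tested.

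**Figure D4:**
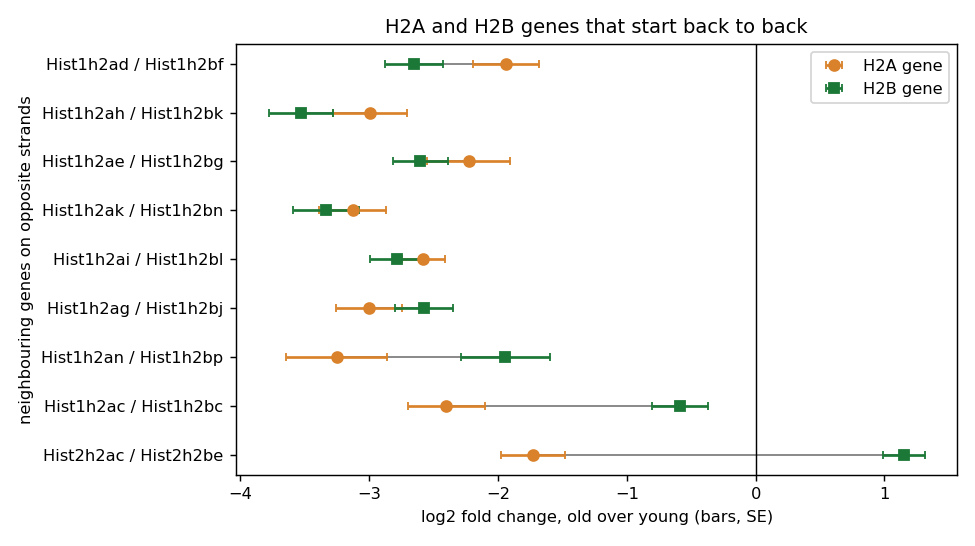
Log2 fold change of old over young (x axis; bars, SE) of the H2A gene (circle) and the H2B gene (square) of the 9 pairs that start back to back. The 2 symbols lie close together in most pairs and farthest apart in Hist2h2ac and Hist2h2be, where only the H2B gene is above 0.

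The annotated transcript ends were compared with the fold changes. The 2 genes without a stem-loop and with a 3′ UTR of at least 100 bases are Hist2h2be and Hist1h2bc, the gene with the smaller of the 2 rises and the gene that was not called. The 15 genes in which no stem-loop was found and with a shorter 3′ UTR all fell, with a median log2 fold change of -2.78. Most of these 15 have almost no annotated bases after the stop codon, so a stem-loop could not be found in them. They cannot be read as a class of genes that lack it. Of the 35 tested genes with a stem-loop, 34 fell and 1, Hist3h2a, rose, with a median of -2.44. In Hist3h2a the annotation runs 1643 bases past the stem-loop.

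The letters of a poly(A) signal (AATAAA, or its common variant ATTAAA) were searched in the last 50 bases of the annotated transcripts. They were found in 12 tested genes, of which 10 fell and 2 rose, with a median log2 fold change of -1.86. Among the 40 without these letters, 39 fell and none rose, with a median of -2.68. The search covered only bases after the stop codon, so genes whose annotation ends at or near it could not show the letters. Part of this split is therefore one between genes with and without an annotated 3′ UTR. For a 3′ UTR of at least 1000 bases the counts were 6 that fell and 2 that rose of 8 (median -1.85), and for a shorter one 43 that fell of 44 (median -2.59). Both genes that rose thus have the letters of a poly(A) signal and a long annotated 3′ UTR. Whether the reads came from transcripts with or without a tail is not given by gene counts.

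Many histone genes are near copies of each other, so their reads can be counted for the wrong copy. In 25 tested genes at least 50% of the 50-base windows also occur in another gene, and these values are uncertain as single genes. All 25 fell, with a median log2 fold change of -2.71. Of the 20 with 10% to 50% shared, 18 fell and 1 rose (median -2.25), and of the 7 with under 10%, 6 fell and 1 rose (median -1.81). Hist2h2bb and Hist2h3b share 100% of their windows with another gene, while Hist1h1a and Hist1h1b share none and fell. Windows were matched on both strands, and a gene with overlapping exons counted as another gene. Exons of Hist2h2bb and Hist2h3b overlap other genes, so their 100% need not come from a second histone copy. The same limit holds for the shared windows of the other overlapped genes. Exons of 18 tested genes overlap another gene, and since the strandedness of counting is not given, reads of overlapping genes cannot be told apart. The median was -2.53 for these 18 and -2.55 for the 34 others. Hist1h2be and Hist1h1e overlap each other on the same strand.

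Some libraries held the same place in most histone genes. Old replicate 3 was the lowest of all 6 libraries in 45 of the 55 genes, and old replicate 2 the highest of the old in 47. Young replicate 1 was the highest of all in 42. The lowest of the young was replicate 2 in 29 genes, replicate 3 in 19 and replicate 1 in 7. RNAs that lack a poly(A) tail were looked at beside this order, since the labels name the TruSeq protocol without saying how messenger RNA was selected. Of 14 such RNAs tested, 1 fell, 1 rose and 12 were not called, beside 17.6% of all tested genes that fell and 17.9% that rose, with a median log2 fold change of -0.07. Rn7sk, which holds back transcription elongation, had 65558, 66430 and 55276 normalized counts in old libraries and 44284, 46613 and 50359 in young libraries (log2 fold change 0.40; limma adjusted p = 0.0320). Rmrp, the RNA of an RNA-cleaving enzyme, had 12929, 16921 and 10904 in old libraries and 28188, 20022 and 16600 in young libraries (log2 fold change -0.66; limma adjusted p = 0.0335). Leaving out old replicate 1, young replicate 1 or young replicate 2 ended both calls, leaving out old replicate 2 ended that of Rn7sk (adjusted p = 0.124), and DESeq2 ended that of Rmrp (adjusted p = 0.0663). The Rn7sk call was also lost with no filter (adjusted p = 0.0877) and with quantile normalization (adjusted p = 0.0952). Rmrp was lowest in old replicate 3 and highest in young replicate 1, as were most histone genes, while ribosomal RNA was highest in old replicate 3. Old replicate 3 was the lowest library in most of the 14 tested RNAs, though not in Rn7sk, which was lowest in young replicate 1. Young replicate 1 was the highest library in fewer of them. The cause of this order was not tested.

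Histone genes that are expressed outside S phase were tested beside them. Of 9 such replication-independent genes tested, 5 fell and none rose, beside 17.6% of all tested genes that fell and 17.9% that rose, with a median log2 fold change of -0.31. Cenpa, the H3 variant of centromeres, had 39.4, 55.6 and 44.5 normalized counts in old libraries and 540, 517 and 454 in young libraries (log2 fold change -3.42 ± 0.14, SE; limma adjusted p = 2.41e-07). H2afx, the variant phosphorylated at DNA breaks, had 55.0, 86.3 and 66.0 in old libraries and 522, 372 and 293 in young libraries (log2 fold change -2.48 ± 0.22, SE; limma adjusted p = 2.73e-05). H2afx is one of the 6 other genes whose transcripts hold the stem-loop letters. Of those 6, 3 were listed, and the other two were Syncrip, at -0.29 on the log2 scale (limma adjusted p = 0.0144), and Klf7, at -0.10 (limma adjusted p = 0.366). H2afv and H2afz fell, with log2 fold changes of -1.17 and -0.84. H3f3a, a gene of the replacement histone H3.3, had 1054, 1183 and 907 in old libraries and 796, 981 and 999 in young libraries, which overlap. The other gene of H3.3, H3f3b, had 2396, 2434 and 1953 in old libraries and 2673, 2796 and 2898 in young libraries, and fell (log2 fold change -0.31; limma adjusted p = 0.0269).

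The lists of genes that make and end histone transcripts had medians closer to 0. Of 22 genes of histone mRNA 3′ end processing and turnover, 9 fell, 1 rose and 12 were not called, where 17.6% of all tested genes fell and 17.9% rose, with a median log2 fold change of -0.19. Slbp, which binds the stem-loop, had 539, 507 and 494 normalized counts in old libraries and 694, 655 and 701 in young libraries (log2 fold change -0.41 ± 0.07, SE; limma adjusted p = 0.00167). Eri1, an exonuclease that trims the stem-loop, Upf1, a helicase of histone mRNA decay, and Srrt, a cap-associated factor, fell, with log2 fold changes of -0.45, -0.48 and -0.31. The number of calls in this list changed when single libraries were left out, being 16 without old replicate 3 and 5 without old replicate 2. Calls over all genes changed as well. Without old replicate 3, 2888 genes fell and 2772 rose, and without old replicate 2, 1664 fell and 1474 rose. With all libraries 2076 fell and 2107 rose.

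Of 14 genes of histone gene transcription, 8 fell, 1 rose and 5 were not called, beside the same 17.6% and 17.9% of all tested genes, with a median of -0.34. E2f2, an S-phase transcription factor, had 357, 357 and 330 normalized counts in old libraries and 768, 813 and 724 in young libraries (log2 fold change -1.14 ± 0.08, SE; limma adjusted p = 4.39e-06). Ccne1, a cyclin E gene, had a log2 fold change of -0.72 and Pou2f1, which encodes OCT1, one of -0.73, and both fell. Npat itself had 494, 427 and 472 in old libraries and 527, 522 and 568 in young libraries (log2 fold change -0.22; limma adjusted p = 0.0658). The 1 gene that rose, Pou2af1, is a coactivator of octamer factors in B cells, at 52.6, 45.3 and 25.4 in old libraries and 1.01, 0 and 0.845 in young libraries, and moved with the B-cell markers given above.

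Of 25 histone chaperones and assembly genes, 12 fell, none rose and 13 were not called, beside 17.6% of all tested genes that fell, with a median of -0.32. Anp32e, a chaperone of the variant H2A.Z, Asf1b, which carries H3 and H4, Hjurp, the chaperone of Cenpa, and Chaf1a, of the assembly factor at replication forks, fell, with log2 fold changes of -1.34, -1.28, -1.05 and -0.97. Of 22 genes of S-phase DNA synthesis, 19 fell, none rose and 3 were not called, beside the same 17.6%, with a median of -0.55. Among these, the nucleotide synthesis enzymes Tk1, Rrm2 and Tyms and the replicative polymerase Pole fell, with log2 fold changes of -1.90, -1.79, -1.46 and -1.02. Pcna, the sliding clamp of replication, had 2876, 2888 and 2341 normalized counts in old libraries and 2389, 2526 and 2913 in young libraries, which overlap.

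All 15 genes of mitosis fell, beside 17.6% of all tested genes, with a median log2 fold change of -2.73, beside -2.54 for the replication-dependent histone genes. Mki67, the usual proliferation marker, had 1327, 1279 and 1453 normalized counts in old libraries and 11070, 11565 and 12169 in young libraries (log2 fold change -3.10 ± 0.07, SE; limma adjusted p = 3.67e-08). Cenpf, Ube2c and Aspm, of the spindle and the exit from mitosis, fell, with log2 fold changes of -3.68, -3.62 and -3.56. As sums of normalized counts, old libraries held 14.6% of the young level for mitosis genes and 68.6% for S-phase synthesis genes, beside 19.7% for the replication-dependent histone genes. The difference between these lists was not tested.

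**Figure D5:**
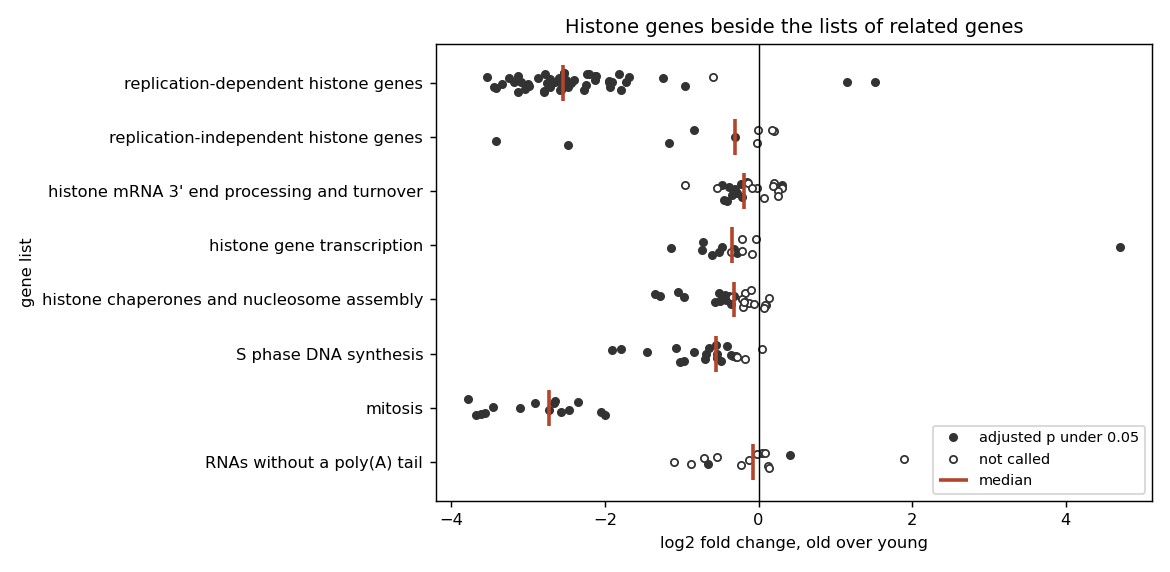
Log2 fold change of old over young (x axis) of each tested gene of 8 lists, with filled circles for an adjusted p under 0.05, open circles for genes that were not called and a red line for the median of the list. The replication-dependent histone genes and the mitosis genes lie far to the left, with medians of -2.54 and -2.73, and the other 6 lists have medians between -0.55 and -0.07.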

How the data were processed

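The authors deposited 1 table of normalized counts for the 6 libraries, here called signal: reads per Ensembl gene divided by a library size factor. Per the submitters' processing notes DESeq2 and build mm10 were used, with no versions. Aligner, counter, annotation and strand setting: not given in the sources used here. Every value was a whole multiple of 1 step per library, so that reads were recovered (100% whole within 0.01). Same-age libraries differed by 1.49 to 4.69 times sampling noise, so none was merged as a duplicate. This does not show whether they are separate mice.

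Of the identifiers, 19917 matched a symbol in GENCODE M21 and 56 did not. Genes with a mean of at least 10 were tested with limma 3.58.1 (R 4.3.3, variance trend) on log2(value + 1), which understates the change of low genes. The fit was tested on simulated data first. P-values were adjusted over all 11795 genes. Alternatives were quantile normalization, pseudocounts of 0.5 and 5, a minimum mean of 50 or none, robust estimation, a replicate block, each library left out, both libraries numbered 3 left out, edgeR 4.0.16 and DESeq2 1.42.0, and for class sums other scalings and member sets. Every tested histone gene is named, and those below the filter by highest mean per class and cluster. Of each related list up to 4 called genes with the smallest adjusted p were named, or the 2 most abundant where none was called. Npat, Pcna, H3f3a, H3f3b, Klf7 and Syncrip were named where a statement needed them, after their values were seen. The members and lists were chosen with earlier results of these data known.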

Additional observations from a re-analysis of the deposited data

How the results depend on the processing

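The count of histone genes that fell stayed between 39 (mean of at least 50, with fewer genes tested) and 51 (without both libraries numbered 3), and the log2 ratio of the summed histone counts between -2.54 and -2.16. Genes that rose numbered 1 with a mean of at least 50, where Hist3h2a falls under the filter. Over all single histone genes and alternatives, 807 values kept their direction and their side of the threshold, 9 lost a call (Hist1h4i and Hist2h3c2), 3 gained one (Hist1h2bc) and none reversed. Of the class sums, H2A gave no value without members that overlap another gene, since all its listed genes do. Same-numbered libraries did not deviate in the same direction (correlations of -0.382, -0.361 and -0.676). The strongest correlation of all old and young pairs was that between the libraries numbered 3, which deviated in opposite directions. Old replicate 3 differed from young replicate 1 by 8.56 times sampling noise, and young replicate 3 from old replicate 1 by 10.6 times. Between old replicate 1 and young replicate 1 it was 16.4 times. What same-numbered libraries share was not tested. With a replicate block, 48 histone genes fell and 2 rose, and over all genes 1362 fell and 1281 rose, against 2076 and 2107 without it. With the block the adjusted p was 0.0521 for Hist1h4i, 0.13 for Hist2h3c2, 0.0256 for Hist1h2bc and 0.184 for Rn7sk. The list of 3′ end processing then had 5 called genes and the RNAs without a poly(A) tail 1. Without both libraries numbered 3, 3387 genes fell and 3573 rose, and 18 of the 3′ end processing list were called. Leaving out single libraries gave 5 to 16 calls in that list and 0 to 2 among RNAs without a poly(A) tail. Over all genes it gave 1486 to 2888 that fell and 1444 to 2772 that rose. The cause of these shifts was not tested. Depth limits the low genes: the 3 below the filter were not tested in the main fit.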
